A study of Mus musculus with 3 samples.

Results

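The subunits of the nuclear RNA polymerases and of the Mediator complex were followed in mouse embryonic stem cells exposed to tubercidin, a toxic nucleoside that resembles adenosine. Members were all genes whose symbol begins with Polr1, Polr2 or Polr3 and a letter, or with Med and a digit, which gave 59 of the 32285 genes in the count tables. They comprised 5 Polr1, 13 Polr2 and 10 Polr3 genes, 30 Med genes, and Med9os, a transcript from the strand opposite Med9. Cells were of the E14 line, of 129/Ola background, cultured in serum with leukaemia inhibitory factor. The 3 conditions were the solvent DMSO for 6 h (control), 10 uM tubercidin for 3 h and 10 uM tubercidin for 6 h, and each was represented by 1 single-cell library read at the 3' end of polyadenylated RNA. With 1 library per condition no replicate spread could be estimated, so no difference below was tested and no p-value is given, and all 3 comparisons share libraries.

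RNA polymerase I transcribes the large ribosomal RNA precursor, polymerase II the messenger RNAs, and polymerase III transfer RNAs, a small ribosomal RNA and other short RNAs. The 3 enzymes are built on a common plan: each has its own pair of large catalytic subunits, some small subunits are used by all of them, and others are specific to 1 enzyme. Mediator bridges DNA-bound activators and polymerase II, and is described as a head and a middle module that contact the polymerase, a tail that contacts activators, a backbone subunit that joins them, and a separable kinase module. Embryonic stem cells depend strongly on Mediator at the enhancers of their identity genes, and they carry a form of polymerase III that holds Polr3g in place of its paralog Polr3gl.

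Called cells numbered 2031, 2365 and 2926 in the control, 3 h and 6 h libraries, and held 104892739, 29892000 and 24681924 unique molecular identifiers (UMIs, each 1 captured RNA molecule). Median UMIs per cell were 48452, 11877 and 8004.5, so a treated cell yielded far fewer molecules than a control cell. Levels are therefore given as UMIs per 1000000 UMIs of the called cells (CPM), a share of the captured RNA, in which 1 UMI is 1 molecule whatever the length of the gene. Differences are log2 ratios of CPM + 1, and counting intervals are exact 95% intervals of the ratio without that pseudocount, which cover counting error only. The levels of a gene are listed in the order control, 3 h and 6 h, and a bare pair of values in parentheses after them gives its log2 ratios to control at 3 h and at 6 h. All 7 markers of embryonic stem cells were detected in every library, at a summed 4009, 4795 and 3479 CPM. Markers of other types were low in sum: those of the 2-cell-like state had 0.00953, 0 and 0.689 CPM, those of primitive endoderm 7.75, 6.19 and 9.76, those of trophoblast 12.9, 8.40 and 10.6, and those of fibroblasts 0.829, 1.34 and 1.86. In the order of the 3 libraries, 5 of 6, 6 of 6 and 3 of 6 of the 2-cell-like genes found were at 0, as were Lum in the control, Col3a1 at 3 h, and Sox17, Hand1, Col1a2 and Lum at 6 h. Each pair of libraries shared 1 cell barcode.

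Promoters are shown for 2 pairs of members on which results below turn, Med7 and Med31, which were among the lowest members after treatment, and the paralogs Polr3g and Polr3gl, whose balance differed between libraries. Each line is the 250 bases before the annotated start, written 5' to 3' on the strand of the gene, from RefSeq on GRCm38.p6. Capitals mark every match to any of 4 motifs: the TATA box, spelled TATAAA, the box of factor NF-Y, spelled CCAAT, the GC box of the Sp factors, spelled GGGCGG, and a motif of ETS factors, spelled ACTTCCGG. Both strands were searched, so a match on the other strand reads as its reverse complement. The Med7 window lies at chr11:46436697-46436946 (plus strand), that of Med31 at chr11:72215593-72215842 (minus strand), that of Polr3g at chr13:81711014-81711263 (minus strand) and that of Polr3gl at chr3:96594182-96594431 (minus strand).
Med7: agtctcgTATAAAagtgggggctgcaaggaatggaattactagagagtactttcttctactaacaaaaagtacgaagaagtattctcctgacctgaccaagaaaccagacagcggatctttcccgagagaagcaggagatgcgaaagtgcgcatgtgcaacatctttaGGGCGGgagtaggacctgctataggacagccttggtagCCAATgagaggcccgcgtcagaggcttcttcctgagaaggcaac
Med31: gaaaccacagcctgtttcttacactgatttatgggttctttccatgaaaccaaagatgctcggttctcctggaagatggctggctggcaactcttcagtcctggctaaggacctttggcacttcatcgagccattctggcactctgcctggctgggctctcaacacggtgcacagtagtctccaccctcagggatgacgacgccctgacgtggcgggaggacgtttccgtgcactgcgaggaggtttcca
Polr3g: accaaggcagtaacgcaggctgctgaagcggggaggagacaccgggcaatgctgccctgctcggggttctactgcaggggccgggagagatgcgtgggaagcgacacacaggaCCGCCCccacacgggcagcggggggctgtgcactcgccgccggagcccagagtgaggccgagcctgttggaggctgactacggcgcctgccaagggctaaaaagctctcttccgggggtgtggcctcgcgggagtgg
Polr3gl: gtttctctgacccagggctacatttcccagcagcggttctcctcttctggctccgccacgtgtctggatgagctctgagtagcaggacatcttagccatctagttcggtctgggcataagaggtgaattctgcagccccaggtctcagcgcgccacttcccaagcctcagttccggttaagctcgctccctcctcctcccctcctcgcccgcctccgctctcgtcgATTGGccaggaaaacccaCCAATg
The printed Med7 window held 3 matches, 1 to each motif but that of ETS factors, whereas Med31 held 0. The TATAAA of Med7 lies at the end of the window farthest from the start. Another Med7 entry, at chr11:46436711-46436960, held 2 matches, to GGGCGG and CCAAT, and no TATAAA. Polr3g held 1 match, to GGGCGG on the other strand, and Polr3gl held 2 to CCAAT. Across the 54 entries found for 48 subunit genes, GGGCGG occurred in 61.1%, against 32.7% of the 32851 entries of all genes. ACTTCCGG occurred in 11.1% against 2.88%, CCAAT in 33.3% against 33.8%, and TATAAA in 9.26% against 12.4%. Member windows held a median of 14 CpG dinucleotides against 6, with a median base composition of 56.8% G and C against 52.4%. The entries of all genes were not limited to genes expressed in these cells, so whether the subunits differ from other expressed genes was not tested. These are descriptions of letters in a window, and no match here says only that the letters are absent from it.

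All 58 subunits were detected in every library, and 56 of them reached a mean of 10 CPM over the 3 libraries, the level used here for counting differences. Med12l (3.90, 3.48 and 4.74 CPM in the control, 3 h and 6 h libraries) and Med18 lay below it. Med9os stood at 0.315, 0.167 and 0.365 CPM, from 33, 5 and 9 UMIs. The loci are spread over 19 chromosomes.

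No subunit was at least 2-fold higher than control after either exposure, and a small set was at least 2-fold lower. At 3 h, 5 of 56 subunits (8.93%) were lower by this rule, against 5.54% of the 7884 genes with the same mean, and 0 were higher, against 0.888%. At 6 h, 6 of 56 (10.7%) were lower, against 4.41%, and 0 were higher, against 2.33%. Med7, Med30, Med31 and Polr2l were lower at both times, Med28 only past the rule at 3 h, and Polr2d and Polr2h only past it at 6 h. Some of these calls depended on the scaling: with median-of-ratios or TMM factors Med7 and Med28 were under 2-fold at 3 h, which left 3 of the 5, and with median-of-ratios factors Polr2l was under it at 6 h. Of the 7884 genes, 142 and 202 were lower at 3 h with those 2 factors, in place of 437. A rule of 1.5-fold gave 15 lower subunits at 3 h and 15 at 6 h (26.8% each), close to the 24.5% of all genes at 3 h and above the 16.9% at 6 h. It gave 0 higher subunits at 3 h, where 3.61% of all genes passed, and at 6 h it gave 2 (3.57%, against 7.06%), Polr2f and Polr2i.

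The median log2 ratio over the 56 subunits was -0.32 at 3 h and -0.10 at 6 h, beside -0.27 and -0.12 over all 7884 genes. Subunits of polymerase I had a median of 0.12 and 0.09, those of polymerase II -0.08 and -0.09, those of polymerase III -0.26 and -0.12, and those of Mediator -0.38 and -0.12. At 3 h the order ran from polymerase I, by its Polr1 genes alone, to Mediator, and at 6 h polymerases II and III and Mediator lay close together. Further subunits of polymerases I and III under other symbols, given below, are not in this order and had medians of -0.13 and -0.41. The signs of the small medians depended on the scaling: with median-of-ratios factors, which raised the median of all genes by 0.27 at 3 h and 0.12 at 6 h, polymerase II stood at 0.20 and 0.04. Relative to the median of all genes, which a change of scaling moves along with the members, 4 of 5, 8 of 13, 5 of 10 and 10 of 28 subunits of polymerases I, II and III and Mediator lay above at 3 h, and 3, 7, 5 and 14 at 6 h. With median-of-ratios factors the count over all genes at 3 h was 161 higher and 142 lower, in place of 70 and 437, and at 6 h 241 and 242, in place of 184 and 348. Mediator at 3 h stayed below 0 under the other scalings, at -0.11 with median-of-ratios factors and -0.20 with TMM factors.

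**Figure D1:**
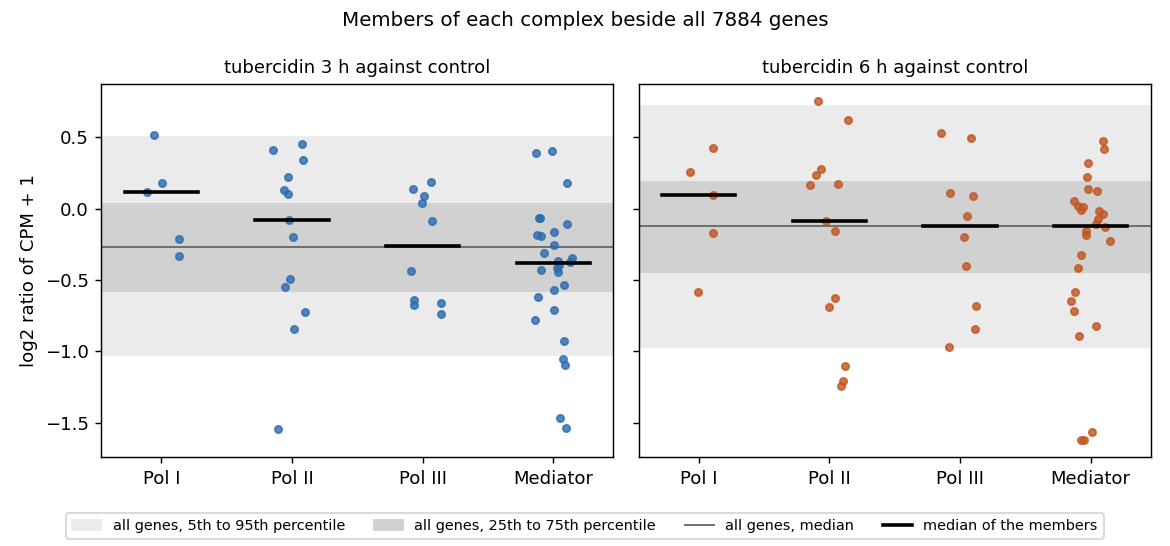
Log2 ratio of CPM + 1 against control (vertical axis) for each subunit with a mean of at least 10 CPM, by complex, at 3 h (left) and 6 h (right). Points are subunits, thick lines the medians of a complex, and grey bands the 5th to 95th and 25th to 75th percentiles of all 7884 genes; at 3 h the median of polymerase I lies at 0.12 and that of Mediator at -0.38.

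The 5 subunits shared by polymerases I, II and III spanned the whole range of the polymerase II genes, from -1.55 to 0.45 at 3 h and from -1.24 to 0.76 at 6 h. Polr2f, a small subunit that helps hold the clamp to the core, was at 290.8, 397.9 and 491.8 CPM in the control, 3 h and 6 h libraries. Polr2e, which lies at the jaw of the enzymes, was at 247.3, 329.3 and 300.5 CPM. Both were therefore above control in both treated libraries, by a log2 ratio of 0.45 and 0.76 for Polr2f and of 0.41 and 0.28 for Polr2e.

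The other three shared subunits were below control in both treated libraries. Polr2h was at 100.1, 68.3 and 41.9 CPM, and its log2 ratio went from -0.55 at 3 h to -1.24 at 6 h (counting interval -1.35 to -1.17). Polr2k, a zinc-binding subunit, was at 114.8, 81.2 and 71.0 CPM (-0.49 and -0.69). Polr2l, another small zinc-binding subunit, needed for assembly of the enzymes, was at 47.9, 15.8 and 21.8 CPM. Its log2 ratio of -1.55 at 3 h (-1.74 to -1.47) was the lowest of all polymerase subunits and lay at the 0.533 percentile of all genes, while at 6 h it was -1.10. The log2 ratio of Polr2l was thus 0.45 higher at 6 h than at 3 h, and that of Polr2h 0.69 lower.

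**Figure D2:**
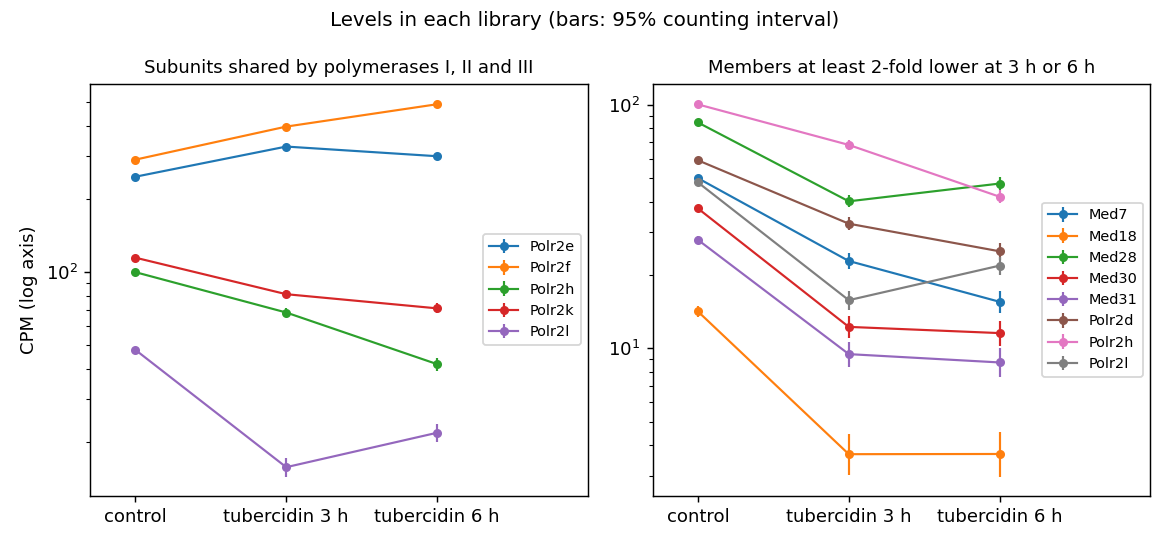
CPM on a log axis in the control, 3 h and 6 h libraries, 1 library each, for the 5 subunits shared by all 3 polymerases (left) and for the 8 members at least 2-fold below control at either time, Med18 with a mean under 10 CPM included (right). Bars are exact 95% counting intervals; Polr2f reaches 491.8 CPM at 6 h while Polr2l is at 15.8 CPM at 3 h.

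Polymerase I has 5 members here, and none was 2-fold higher or lower. Over all genes 5.54% and 4.41% were 2-fold lower at 3 h and 6 h, and 0.888% and 2.33% higher. Beside such shares, 0 of 5 does not set these genes apart. Polr1a, its largest catalytic subunit, was at 74.8, 84.7 and 100.6 CPM in the control, 3 h and 6 h libraries. Polr1b, the second largest, was at 25.7, 22.1 and 22.8 CPM, so at 6 h the catalytic pair lay on opposite sides of the control, with log2 ratios of 0.42 for Polr1a and -0.17 for Polr1b. Polr1e, a subunit of the dimer that aids initiation and elongation on ribosomal genes, was at 25.7, 37.2 and 30.9 CPM. Its log2 ratio of 0.52 at 3 h was the highest of all 56 subunits, at the 95.3 percentile of all genes.

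Polr1c and Polr1d form the dimer on which polymerases I and III are assembled, and the 2 differed in direction. Polr1c was at 121.5, 131.9 and 129.9 CPM (0.12 and 0.09). Polr1d was at 287.2, 228.1 and 191.3 CPM (-0.33 and -0.58). The summed level of the 5 genes was 534.9, 504.0 and 475.4 CPM, lower in both treated libraries on this scale although their median ratio was above 0, with Polr1d as the largest part of the sum. Another 4 subunits of polymerases I and III carry other symbols and were kept as a separate list. Znrd1 was at 143.1, 137.6 and 92.4 CPM, Twistnb at 107.7, 93.6 and 58.4, Cd3eap at 63.4, 50.1 and 55.4, and Crcp at 23.5, 23.5 and 23.8. Their median log2 ratio was -0.13 at 3 h and -0.41 at 6 h, and 0 of 4 passed 2-fold, beside the same shares of all genes.

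Among the polymerases, polymerase II had the widest span, with 1 of 13 subunits at least 2-fold lower at 3 h, 3 of 13 at 6 h, and 6 of 13 above control at each time. Over all genes 5.54% and 4.41% were 2-fold lower, and 27.4% and 39.7% lay above control, at 3 h and 6 h. Polr2a, the largest subunit, whose carboxy-terminal repeats are phosphorylated during transcription, was at 192.5, 182.2 and 216.3 CPM. Polr2b, its catalytic partner, was at 138.5, 83.4 and 123.9 CPM. At 3 h Polr2b was thus the lower of the 2 by its log2 ratio, -0.72 (-0.79 to -0.67) against -0.08 (-0.12 to -0.04), and at 6 h the values were -0.16 and 0.17. With median-of-ratios factors the 3 h value of Polr2a was 0.20.

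Polr2d and Polr2g form the stalk of the enzyme, which contacts emerging RNA. Polr2d was at 59.1, 32.5 and 24.998 CPM, with log2 ratios of -0.84 and then -1.21 (-1.36 to -1.12). Polr2g was at 103.2, 89.9 and 66.6 CPM, with -0.20 and -0.62. Both stalk subunits were lower at 6 h than at 3 h. RefSeq lists processed copies of Polr2d and Polr2k that have no row of their own in the count tables, so reads from such copies cannot be told apart from reads of these genes.

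The assembly pair of polymerase II, Polr2c and Polr2j, lay above control throughout. Polr2c was at 273.7, 319.0 and 308.2 CPM (0.22 and 0.17) and Polr2j at 210.0, 229.8 and 247.3 CPM (0.13 and 0.23). Polr2i, a subunit involved in start site selection and transcript cleavage, was at 161.9, 205.3 and 249.98 CPM. Its log2 ratios of 0.34 and 0.62 were, with those of Polr2f, the highest of the complex at 6 h. Polr2i shares 325 exonic bases with Tbcb on the other strand, which was at 147.6, 122.5 and 149.1 CPM, and whether the counting used strand is not given in the sources used here.

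Polr2m, a regulator that associates with polymerase II and restrains its initiation until Mediator acts, was at 123.01, 132.0 and 115.5 CPM. Its log2 ratio was 0.10 at 3 h and -0.09 at 6 h (0.04 with median-of-ratios factors). The summed level of the 13 genes was 2063 CPM (counting interval 2054 to 2072), 2166 CPM (2150 to 2183) and 2280 CPM (2261 to 2299) in the same order. This sum was higher in the treated libraries while the median ratio of the 13 was below 0, with Polr2f, Polr2e and Polr2c, the subunits with the most UMIs, all above control. Without the 5 shared subunits the median of the remaining 8 was 0.01 and 0.04.

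**Figure D3:**
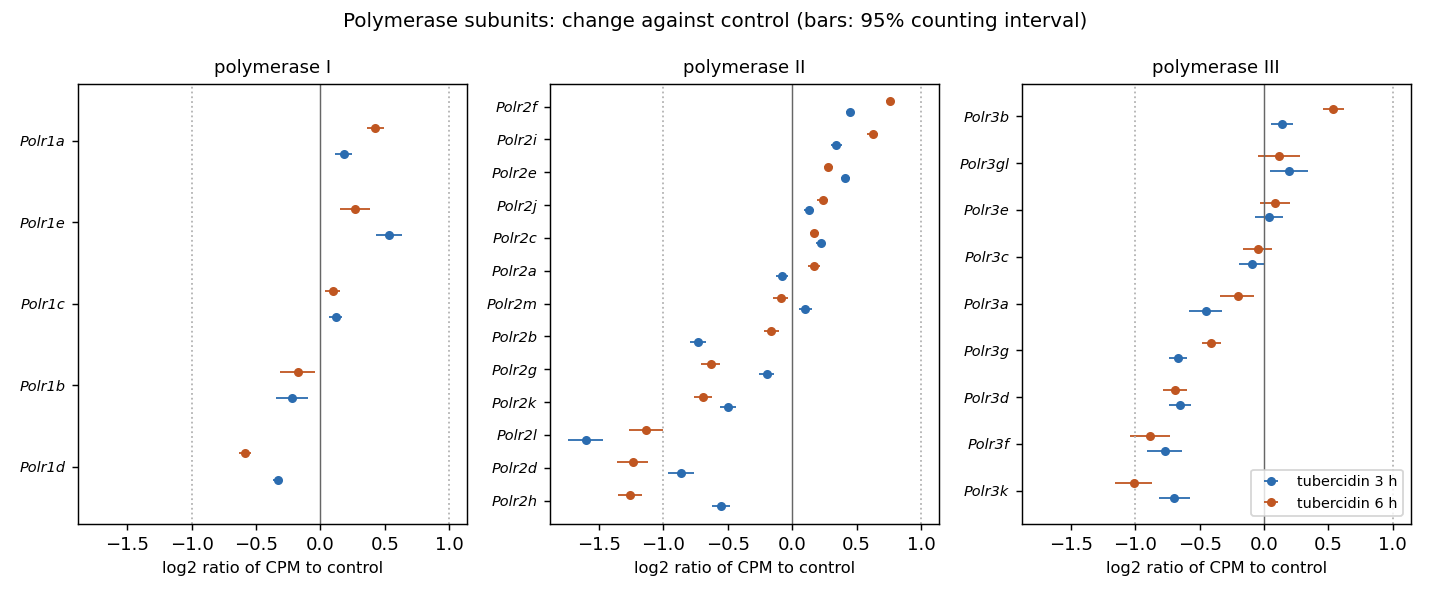
Log2 ratio of CPM to control, without pseudocount, for subunits of polymerases I, II and III (horizontal axis; 1 member is not drawn), in blue at 3 h and in orange at 6 h. Bars are 95% counting intervals and dotted lines mark 2-fold; Polr2l lies past the lower line at both times and Polr2d, Polr2h and Polr3k at 6 h (Polr3k only on this scale without pseudocount), and none lies past the upper one.

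Polymerase III had 0 of 10 subunits past 2-fold at either time, with 4 of 10 above control at both, beside those same shares of all genes. Its large subunits differed: Polr3a was at 26.5, 19.3 and 23.0 CPM and Polr3b at 44.8, 49.3 and 65.0 CPM. The log2 ratio of Polr3b at 6 h, 0.53 (0.45 to 0.62), was the highest of the complex, while that of Polr3a was -0.20.

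The lowest ratios of the complex belonged to Polr3k and Polr3f. Polr3k, which serves transcript cleavage and termination, was at 36.0, 22.2 and 17.9 CPM. At 6 h its log2 ratio of -0.97 (-1.16 to -0.87) lay just short of 2-fold. UMIs per cell aside, it was past 2-fold in 4 of 11 other settings that could move the value. Polr3f, part of the trimer that helps open promoter DNA, was at 28.7, 16.8 and 15.6 CPM (-0.74 and -0.84). Polr3d, which works in a dimer with Polr3e, was at 70.0, 44.5 and 43.3 CPM (-0.64 and -0.68), whereas Polr3e was at 27.9, 28.7 and 29.7 CPM. The partners in this dimer therefore differed, with a counting interval that holds 0 for Polr3e at both times. Polr3c, the remaining partner of Polr3f in the trimer, was at 34.5, 32.4 and 33.3 CPM, and its interval held 0 as well.

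Polr3g and Polr3gl are alternative members of that trimer, and the share of the 2 within a library needs no scaling. Polr3g had 10431, 1871 and 1849 UMIs in the control, 3 h and 6 h libraries, and Polr3gl 1474, 481 and 376. Polr3g thus made up 87.6% of the UMIs of both (exact binomial interval 87.0 to 88.2), 79.5% (77.9 to 81.2) and 83.1% (81.5 to 84.6), in the same order. Polr3g supplied most of the pair in each library, its share was lowest at 3 h, and the 3 intervals did not overlap. In CPM, Polr3g was at 99.4, 62.6 and 74.9 and Polr3gl at 14.1, 16.1 and 15.2. Their promoter windows, printed above, differ in base composition, with 68.4% G and C for Polr3g and 59.2% for Polr3gl.

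Mediator had the lowest median of the 4 complexes at 3 h among subunits with a mean of at least 10 CPM. At a mean of at least 50 CPM the order turned, with -0.64 for the 3 remaining subunits of polymerase III and -0.29 for the 10 of Mediator. Of the 28 Mediator subunits with a mean of at least 10 CPM, 25 lay below control at 3 h and 19 at 6 h by CPM, where 72.6% and 60.3% of all genes did. Against the median gene, 18 and 14 of the 28 were lower. At least 2-fold lower were 4 (14.3%, against 5.54% of all genes) and 3 (10.7%, against 4.41%). Its summed level was 1512 CPM (1504 to 1519) in the control, then 1167 CPM (1155 to 1180) and 1278 CPM (1264 to 1292). The sum and the median agreed in direction, and both were less far below control at 6 h than at 3 h.

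The middle module held 2 of the lowest members. Med7, which forms the hinge of the module together with Med21, was at 49.9, 22.8 and 15.5 CPM. Its log2 ratio was -1.09 (-1.25 to -1.01) after 3 h, and after 6 h it was -1.62 (-1.84 to -1.53), which made it the lowest of all counted members at 6 h, at the 0.482 percentile of all genes. Med31, which binds the amino-terminal part of Med7, was at 27.9, 9.47 and 8.75 CPM (-1.46 and -1.57).

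Med21, the hinge partner, was at 116.8, 88.6 and 77.6 CPM (-0.40 and -0.58), and so was less far below control than Med7. Med4 was at 112.4, 58.6 and 60.0 CPM, with -0.93 and -0.90, just short of 2-fold at both times. Med10 was at 60.6, 47.5 and 36.4 CPM (-0.34 and -0.72). Med1, which binds nuclear receptors, went the other way at 6 h: it was at 56.8, 54.3 and 76.1 CPM (-0.06 and 0.42). Med19, at 117.5, 156.0 and 116.7 CPM, stood 0.41 above control at 3 h on the log2 scale, with -0.01 at 6 h (0.12 with median-of-ratios factors). Med9 and Med26 had log2 ratios between -0.19 and 0.14 at both times. The median of the 9 middle subunits was -0.34 at 3 h and -0.58 at 6 h.

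In the head module, Med17, its scaffold, was at 53.6, 32.4 and 34.0 CPM (-0.71 and -0.64). Med18 and Med20 form a mobile pair on the head, and they differed in direction. Med18 was at 14.2, 3.68 and 3.69 CPM, from 1486, 110 and 91 UMIs (-1.70 and -1.69). This was the largest difference of any member, but its mean lay under 10 CPM and it is in none of the counts. Med20 was at 15.1, 20.04 and 19.0 CPM (0.39 and 0.32). Med6, Med8, Med11 and Med22 had log2 ratios between -0.57 and -0.11 at 3 h and between -0.32 and -0.04 at 6 h. The 6 counted head subunits had a median of -0.31 and -0.17.

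The backbone subunit Med14 was at 24.0, 17.3 and 22.8 CPM (-0.45 and -0.07), and its counting interval held 0 at 6 h.

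Tail subunits ran from among the lowest to the highest of Mediator at 6 h. Med30 was at 37.5, 12.2 and 11.6 CPM, with -1.54 at 3 h (-1.77 to -1.46) and -1.62 at 6 h (-1.88 to -1.52), below the first percentile of all genes at both times. Med28, assigned here to the tail, was at 84.4, 40.1 and 47.4 CPM, with -1.06 at 3 h and -0.82 at 6 h. Both were low at each time, and neither overlaps another gene of the count tables in its exons.

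Med29 was at 91.6, 87.5 and 127.7 CPM, with -0.07 at 3 h (0.21 with median-of-ratios factors) and 0.47 at 6 h, the highest of the Mediator subunits at 6 h. Med16, which contacts activators, was at 33.9, 19.3 and 39.7 CPM, with -0.78 at 3 h and 0.22 at 6 h. Med15, Med23, Med24, Med25 and Med27, among them the targets of several well studied activators, lay between -0.41 and 0.18 at 3 h and between -0.18 and 0.12 at 6 h. The 9 tail subunits had a median of -0.37 at 3 h and -0.01 at 6 h, so the tail and the middle module, close at 3 h, lay apart at 6 h.

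**Figure D4:**
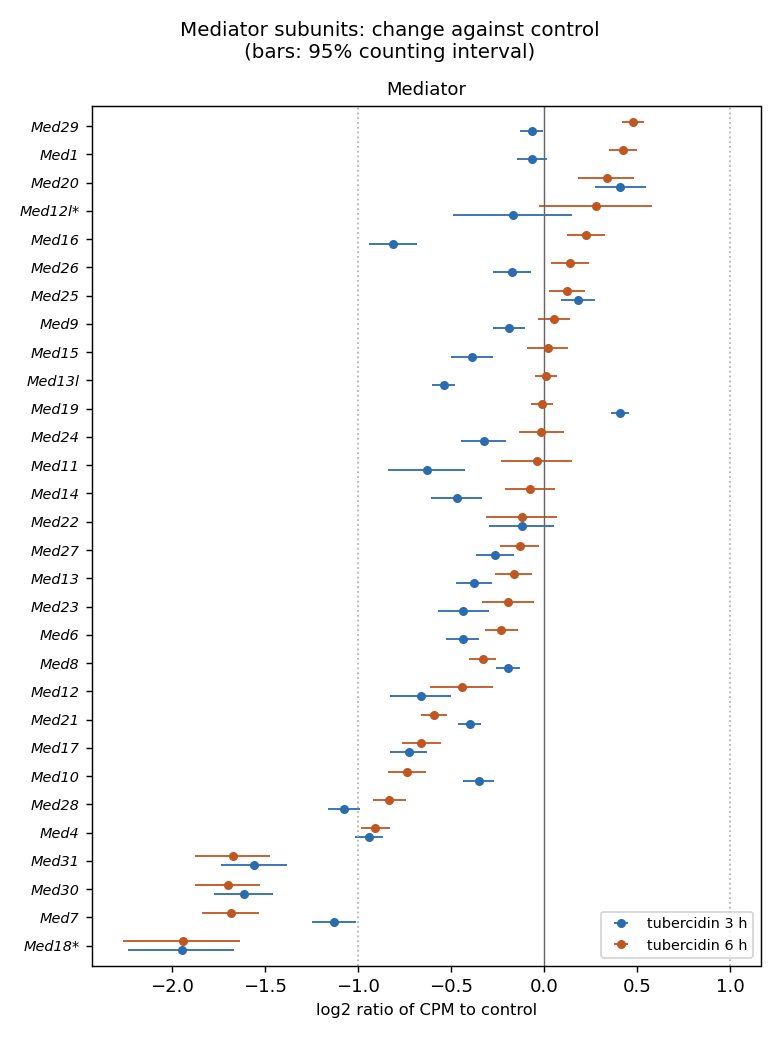
Log2 ratio of CPM to control, without pseudocount, for the 30 Mediator subunits, in blue at 3 h and in orange at 6 h; an asterisk marks a mean under 10 CPM. Bars are 95% counting intervals and dotted lines mark 2-fold; Med18, Med7, Med30 and Med31 lie past the lower line at both times and Med28 at 3 h.

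The kinase module pairs Med12 and Med13, or their paralogs, with cyclin C and a kinase. Med12, which activates the kinase, was at 18.8, 11.9 and 13.9 CPM (-0.62 and -0.42). Med13, which links the module to the core, was at 46.1, 35.6 and 41.2 CPM (-0.37 and -0.16), and Med13l at 116.0, 79.8 and 116.9 CPM (-0.53 and 0.01). Med12 supplied 82.9% of the UMIs of Med12 and Med12l (81.3 to 84.3) in the control, then 77.4% (73.3 to 81.1) and 74.5% (70.3 to 78.4). Med13 supplied 28.4% of those of Med13 and Med13l (27.8 to 29.1), then 30.8% (29.3 to 32.4) and 26.1% (24.7 to 27.5). Of the non-member partners, Ccnc, which encodes cyclin C, was at 49.4, 43.9 and 41.9 CPM, and the kinase gene Cdk19 at 53.4, 41.5 and 61.1.

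The paralogous kinase gene Cdk8 was at 78.4, 325.7 and 451.9 CPM, log2 ratios of 2.04 and 2.51. These lay at the 99.8 and 99.9 percentiles of all genes, above every Mediator subunit. Its UMIs per cell were 4.05, 4.12 and 3.81, so its count per cell was about level while the total UMIs per cell were lower in the treated libraries. Transcripts that carry ribosomal RNA sequence also had higher CPM in the treated libraries: Gm42418 was at 2259, 3753 and 4178, and AY036118 at 71.2, 172.2 and 315.1. Their part in the Cdk8 value was not tested.

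Between the treated libraries, 19 of 28 Mediator subunits were higher at 6 h, where 67.6% of all genes were, and 15 of them lay above the median of all genes, with a median log2 ratio of 0.20 beside 0.14 over all genes. Polymerases I, II and III had medians of -0.02, -0.05 and 0.04. Med16 was the only subunit past 2-fold (1 of 56, 1.79%, against 1.64% of all genes), with a log2 ratio of 1.00 (0.89 to 1.19), so it stood at the threshold and passed it in 4 of 11 other settings that could move the value. It was under 2-fold with median-of-ratios and TMM factors. No subunit was 2-fold lower at 6 h than at 3 h, where 0.165% of all genes were. At 1.5-fold, Med16 was again the only one higher (1.79%, against 8.51%), and Polr2h the only one lower (1.79%, against 1.67%).

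As a share of each cell's UMIs, the median over cells differed from control in the same direction as the summed level of each complex, which comes from the same UMIs. For polymerases I and II this direction was opposite to that of the median log2 ratio of their subunits. The median cell carried 1505 CPM of Mediator UMIs (10th to 90th percentile 1253 to 1793) in the control, then 1147 CPM (749 to 1691) and 1245 CPM (714 to 1883). For polymerase II the medians were 2060, 2136 and 2250 CPM, for polymerase I 535.0, 501.3 and 446.9, and for polymerase III 415.1, 316.8 and 342.6. In molecules, a median cell held 102, 26 and 18 UMIs of polymerase II and 73, 14 and 10 of Mediator. A lower RNA content per cell and a less complete capture of it cannot be told apart here.

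Ratios in shallow and in deep cells are given here for Med30, Polr2l and Med7. These members were called lower on the sum of the same cells, and sets of cells from 1 library are not replicates, so likeness between the sets is no separate support. In cells below the median UMIs of their library, Med30 had log2 ratios of -1.53 at 3 h and -1.66 at 6 h, and in the remaining cells -1.54 and -1.59. Polr2l at 3 h was at -1.73 and -1.46 in the 2 sets of cells, and Med7 at 6 h at -1.60 and -1.64. At 6 h Polr2l was at -0.99 in the shallower cells, just short of 2-fold.

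Gene length, which the choice of members did not use, was set beside the ratios. The 28 counted subunits with a gene of at most 15113 bases had medians of -0.37 and -0.45 in the treated libraries, and held 4 and 5 of the members at least 2-fold lower. The 28 longer genes had -0.28 and -0.03, and held 1 at each time, Med30, whose gene spans 18157 bases at chr15:52712408-52730564. Among all counted genes with an annotated length (7882 of 7884), split at the same value, the shorter had medians of -0.08 and -0.07 and the longer -0.34 and -0.13, and 5.81% and 7.83% of the shorter were 2-fold lower, against 5.40% and 2.80% of the longer. Split by spliced transcript length, at 2474 bases, the members ran the other way at 3 h. The shorter had -0.23 and the longer -0.37, while at 6 h they had -0.18 and -0.04. At 3 h and 6 h, 3 and 5 of the shorter and 2 and 1 of the longer were 2-fold lower. All genes, split at the same value, had the same direction as the members at 3 h, with -0.13 and -0.35. At 6 h all genes had -0.10 and -0.13, the opposite direction to the members. Of the shorter of all genes 4.598% and 6.29% were 2-fold lower, against 6.09% and 3.29% of the longer. The short genes also held the members highest at 6 h, Polr2f and Polr2i, and ran from -1.62 to 0.76 at 6 h. Med7 (5797 bases), Med31 (3869), Polr2l (3273) and Polr2h (4603) were all short, as was Polr2i (1443).

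Counting on overlapping loci limits some of these values. Exonic bases are shared with an opposite-strand gene of the count tables by 18 members and with a same-strand gene by 0. Among the members past 2-fold, Med31 shares 455 bases with 4930563E22Rik, which was at 2.21, 1.34 and 1.499 CPM, and Polr2h shares 82 bases with Clcn2, at 5.12, 1.91 and 2.47 CPM. Polr2f shares 245 bases with 1700088E04Rik, at 1.33, 1.44 and 1.17 CPM. These 3 neighbours were at low levels beside the members.

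Factors that work with the polymerases were taken from fixed lists, as a setting for the subunits, and are described by log2 ratios to control. Counts past 2-fold in these short lists stand beside 5.54% and 4.41% of all genes lower, and 0.888% and 2.33% higher, at 3 h and 6 h. Among 17 counted general factors of polymerase II the median was -0.32 at 3 h and -0.49 at 6 h. Gtf2b, which positions the polymerase at the start site, was the only one past 2-fold, at 47.6, 25.4 and 18.9 CPM with -1.29 at 6 h, and Gtf2f1 had the highest ratio, at 119.3, 130.4 and 165.3 CPM. Among 12 counted subunits of TFIID, which binds core promoters, the medians were -0.39 and -0.30. Taf7 was at 284.9, 139.0 and 227.4 CPM, 2-fold lower only at 3 h (-1.03), and Taf10 had the highest ratio, at 198.5, 258.5 and 254.1 CPM.

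The 6 factors of polymerase I had medians of 0.01 and 0.10, with 0 past 2-fold, and ran from Taf1b (25.6, 16.4 and 19.2 CPM) to Taf1d (294.1, 336.4 and 296.2 CPM) at 3 h. The 16 factors of polymerase III had medians of -0.27 and 0.00. Snapc1, of the complex that recognises small nuclear RNA promoters, was 2-fold lower at both times, at 26.4, 12.1 and 12.3 CPM. Gtf3c6 had the highest ratio, at 110.0, 163.9 and 171.6 CPM. The 5 counted assembly factors had medians of -0.52 and -0.20, and ran at 6 h from Rpap2 (26.1, 17.9 and 15.2 CPM) to Rpap1 (36.6, 34.6 and 45.9 CPM), with 0 past 2-fold. Polrmt, Tfam and Tfb2m, which transcribe mitochondrial DNA, had medians of -0.49 and -0.45, with the lowest ratio for Tfam, at 92.9, 51.4 and 60.4 CPM. The polymerase I factors had the highest median of these lists at 3 h, as the Polr1 genes had among the complexes. The rank of the Polr1 genes leaves out the polymerase I and III subunits under other symbols, whose median was -0.13 at 3 h and -0.41 at 6 h.

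**Figure D5:**
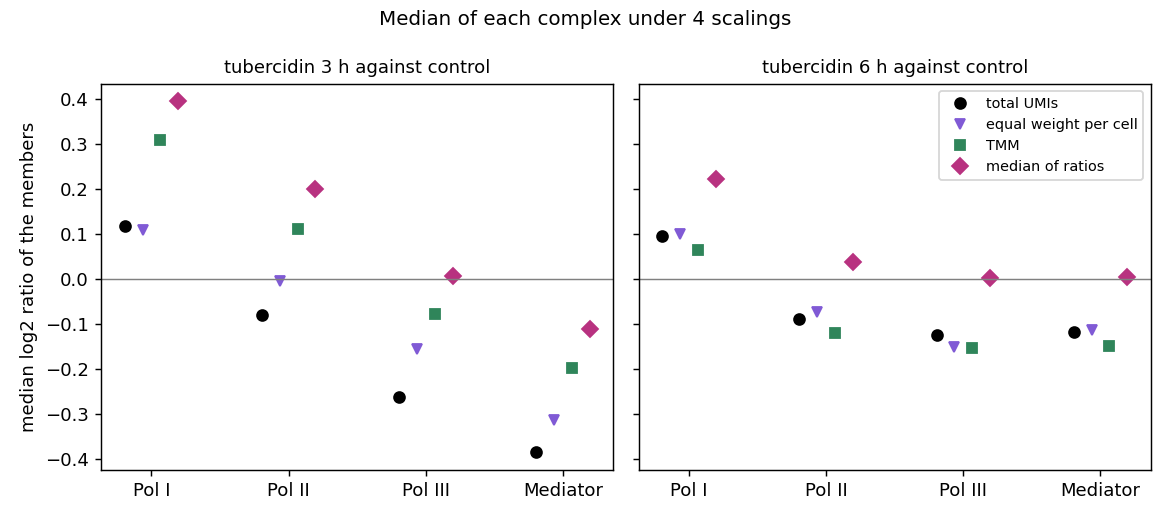
Median log2 ratio of each complex (vertical axis) at 3 h (left) and 6 h (right) under 4 scalings, by total UMIs, equal weight per cell, TMM factors and median-of-ratios factors. The order of the complexes at 3 h is the same in all 4, with polymerase I between 0.11 and 0.39 and Mediator between -0.38 and -0.11, while the sign for polymerases II and III differs. Polymerase I is drawn from its Polr1 genes alone.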

How the data were processed

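Droplet 3' single-cell libraries of E14 cells were analysed, 1 for each of 3 conditions. The authors deposited unnormalised counts of UMIs for every barcode, with no cell filter. Per the submitters' processing notes, Cell Ranger 7.1.0 and mm10 were used. The annotation, the use of intronic reads and the use of strand are not given in the sources used here.

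A barcode was called a cell when its UMIs reached 1/10 of those at the 99th percentile among the 3000 largest barcodes, when it had 500 genes or more, and when its mitochondrial share was 20% or less. The UMI minimum was 11034, 2961 and 2107 UMIs in the control, 3 h and 6 h libraries. Doublets were kept, and cells were not clustered. Counts were summed over cells, divided by the library total (CPM), and log2 ratios were formed after adding 1 CPM, with exact conditional binomial intervals for the ratio without the pseudocount, Poisson intervals for levels and Clopper-Pearson intervals for shares, all at 95%. They cover counting error only, since UMIs from 1 library are not replicates. The limit that 0 UMIs allow, 3 counts, is 0.0286, 0.100 and 0.122 CPM in the 3 libraries. With 1 library per condition no test was run. Differences were counted by a fold of 2 (and of 1.5) over the 7884 genes whose mean reached 10 CPM. The calculations were tested on simulated counts.

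Members, partner lists and module assignments were chosen with earlier results of these data known. Values are given for members past 2-fold, the 2 highest and 2 lowest of each complex, the large catalytic subunits, paralog pairs, Polr2m, Med14 and Med1, and for other members by role; of partner lists, for those past 2-fold and the extremes. The values of 1 member are not reported here on their own. All 59 members were found in GENCODE M21 by identifier, which gave gene structure on GRCm38, the build also called mm10; 49 had a promoter entry, chromosome 18 left out. Alternatives changed the mitochondrial limit, the cell cut-off, the scaling (4 others), the pseudocount, filters on low values, free RNA, doublets and the grouping. Software was R 4.3.3 with edgeR 4.0.16 (for TMM factors), and scipy 1.17.1, pandas 2.3.3, numpy 2.4.6 and matplotlib 3.10.9 in Python 3.11.15.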

Additional observations from a re-analysis of the deposited data

Results flagged for a closer look

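In 5 subunits the log2 ratio to control had opposite signs at 3 h and at 6 h, with both counting intervals clear of 0; the difference between the times was not tested. Med16 had a 3 h value of -0.78 (-0.94 to -0.68) and a 6 h value of 0.22 (0.12 to 0.33), and kept both signs under median-of-ratios factors (-0.51 and 0.35) and TMM factors (-0.60 and 0.19). It moved from the 13.0 to the 77.1 percentile of all genes. Med29 was at -0.066 (-0.13 to -0.0043) and 0.47 (0.42 to 0.54), with 0.21 in place of -0.066 at 3 h under median-of-ratios factors. Polr2a was at -0.079 (-0.12 to -0.04) and 0.17 (0.12 to 0.21), with 0.20 at 3 h under those factors. Polr2m was at 0.10 (0.05 to 0.15) and -0.090 (-0.15 to -0.03), with 0.04 at 6 h under those factors. Med26 was at -0.17 (-0.28 to -0.07) and 0.14 (0.04 to 0.24), with 0.11 at 3 h under those factors and 0.020 under TMM factors. Under TMM factors Med29 and Polr2a were also above 0 at 3 h, at 0.12 and 0.11. The median of all genes itself moved from -0.27 to -0.12, and its part in these sign changes was not tested. Of all genes, 27.4% lay above control at 3 h and 39.7% at 6 h. The share of all genes with opposite signs by the same rule was not counted, so whether the subunits differ from it cannot be said.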

How the results depend on the processing

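Values are in the order polymerase I, II, III and Mediator where 4 medians are given, and the cause of each shift was not tested beyond the construction of the setting. Median-of-ratios factors moved the median of all genes by 0.27 at 3 h, 0.12 at 6 h and -0.15 for 6 h against 3 h. They gave 3 lower subunits at 3 h with medians of 0.39, 0.20, 0.0074 and -0.11, medians of 0.22, 0.038 and 0.0014 for the polymerases at 6 h, and 0 higher subunits at 6 h against 3 h, with -0.17, -0.20 and -0.10 for the polymerases. Of 7884 genes, 142 were lower at 3 h with these factors, and 74 were higher at 6 h against 3 h. TMM factors gave 3 lower subunits at 3 h with 0.31, 0.11, -0.077 and -0.20, and 0 higher at 6 h against 3 h with -0.24, -0.27, -0.17 and -0.013. Of 7884 genes, 202 were lower at 3 h with TMM factors, and 57 were higher at 6 h against 3 h. UMIs per cell, which leave the lower yield of treated cells in the ratio, gave 56 lower subunits at 3 h (-1.90, -2.10, -2.24 and -2.37) and 56 at 6 h (-2.50, -2.68, -2.65 and -2.64), and 0 higher and 2 lower at 6 h against 3 h (-0.60, -0.63, -0.51 and -0.36). Almost all genes were lower by this measure: of 7884, 7803 at 3 h and 7825 at 6 h. At 6 h against 3 h, 9 of the 7884 genes were higher and 272 lower. A mean of at least 50 CPM, which tests fewer genes, gave 1 lower subunit at each time, with medians at 3 h of 0.10 for polymerase II and -0.64 for III, below the -0.29 of Mediator, at 6 h of 0.17 and -0.40, and for III at 6 h against 3 h of 0.26, with 0 higher there. Of the 3102 genes at that mean, 95 were lower at 3 h and 75 at 6 h, and 23 were higher at 6 h against 3 h.

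Equal weight for each cell gave -0.00465 for polymerase II and -0.16 for III at 3 h, and subtraction of free RNA gave -0.028 for II. Cells below the median UMIs of their library gave 0.064 for II and -0.065 for III at 3 h, and 0.040 and -0.10 at 6 h against 3 h, and the remaining cells gave -0.14 for II at 3 h; this split was chosen after seeing the data. With shared subunits set apart, polymerases I and II stood at 0.18 and 0.011 at 3 h and at 0.26 and 0.039 at 6 h, and II at 0.028 for 6 h against 3 h. A fold of 1.5 gave 15 lower at 3 h, 2 higher and 15 lower at 6 h, and 1 lower at 6 h against 3 h. Med16 at 6 h against 3 h was under 2-fold, leaving 0 higher, also with equal weight, free RNA subtracted, the UMI minimum halved, cells of high UMIs removed and the deeper cells alone.

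Apart from UMIs per cell, 11 other settings could move a ratio. Past 2-fold in all 11 were Med30 and Med31 at both times, Med7, Polr2d and Polr2h at 6 h and Polr2l at 3 h. Filters on the mean cannot move a ratio, and at 50 CPM Med7, Med30, Med31, Polr2d and Polr2l are not counted. Med7 and Med28 at 3 h passed in 9, not with median-of-ratios or TMM factors, and Polr2l at 6 h in 9, not with median-of-ratios factors or in the shallower cells. Of 1470 values of single named members under alternatives, 335 moved beyond the counting interval. Among those that moved were 104 with UMIs per cell, 82 with median-of-ratios factors and 65 with TMM factors. The 1470 include 105 values at a mean of at least 1 CPM and 105 at 50 CPM, filters that could not move them. The Polr3g share did not move beyond its interval under the cell cut-offs, the mitochondrial limit, free RNA or removal of high-UMI cells. After that removal, though, its intervals at 3 h and 6 h overlapped. No paired analysis was possible because each condition has 1 library, and no library could be left out.

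Depth limits the low members most: Med18 at 6 h rests on 91 UMIs and Med31 on 216.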

Other observations

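Some genes were picked by hand for comparison with Cdk8 after its values were seen, and no rule gave the list. The Cdk8 neighbours Gtf3a and Rnf6 were at 65.8, 69.6 and 83.1 CPM and at 30.6, 17.3 and 19.8 CPM in the control, 3 h and 6 h libraries. Lars2 was at 47.0, 116.4 and 88.3 CPM, Camk1d at 287.4, 214.3 and 700.6 CPM and Cmss1 at 168.0, 188.7 and 242.2 CPM. In both treated libraries Gtf3a was higher and Rnf6 lower than in the control by CPM, so the neighbours of Cdk8 differed in direction.

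Among factors below a mean of 10 CPM, Gpn2, an assembly factor of the polymerases, was at 10.6, 4.25 and 4.50 CPM, with log2 ratios of -1.14 and -1.07 in the treated libraries. Ercc2 was at 7.63, 9.67 and 9.52 CPM. Taf9 was at 0.782, 1.04 and 0.527 CPM.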
